A study of Mus musculus with 24 samples.

Results

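The data described here compare CD4+ T cells of wild-type (WT) mice after 24 h of stimulation through the T cell receptor and CD28 with unstimulated CD4+ T cells of the same mice. The members were the 6 libraries, of 24 in the whole series, that the labels give as WT at 0 h and WT at 24 h, taken from 3 mice numbered 1, 3 and 4 and paired by that number. The remaining libraries came from the WT mice at 3 h and 6 h and from 3 Aim2-/- mice at all 4 times. All mice had a C57BL6 background, and in every group the cells were enriched from spleen, without sorting into naive or memory cells. The methods call the animals sex-matched and age-matched, and the ages are not given in the sources used here. The stimulated groups received anti-CD3 and anti-CD28 antibodies in culture, and the 0 h cells are labelled control and were not cultured, so the effect of 24 h of stimulation cannot be told apart from that of 24 h in culture. Groups outside the 6 libraries were used only as far as they bear on the 24 h change, namely WT at 6 h (3 libraries) and Aim2-/- at 0 h and 24 h (3 libraries each, mice 1, 2 and 4).

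A resting CD4+ T cell is small, divides rarely and circulates between blood and lymphoid organs under the control of homing receptors. Engagement of its receptor together with CD28 sends calcium, MAP kinase and NF-kappaB signals to the nucleus, and the cell then enlarges, makes ribosomes, takes up glucose and amino acids, replicates its DNA and divides. Over the first day it also secretes cytokines, of which interleukin 2 is the classic one, and places the high-affinity interleukin 2 receptor on its surface. Which of these steps were visible as mRNA after 24 h was the question of the comparison.

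Values below are normalised read counts (CPM), that is, reads of a gene per 1000000 reads of its library after scaling between libraries, and single values are listed in the order of the mice labelled WT 1, WT 3 and WT 4. Changes are log2 fold changes of 24 h over 0 h from edgeR's quasi-likelihood test, in which each mouse served as its own control. Unless SD is stated, the value after ± is a standard error derived from that test. It is the size of the change divided by the square root of the F statistic. A gene is called where its p-value, adjusted by Benjamini-Hochberg over all genes tested, was under 0.05. The 6 libraries held between 20400995 and 21068800 counts, so 3 counts, taken as the floor of detection, corresponded to 0.15 to 0.155 CPM. The intervals and floors given below cover counting error only. Because the values are relative to the total of each library, and the samples are bulk RNA, fewer cells of a kind and less RNA per cell cannot be told apart.

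The labels and the cell type were examined first. Aim2, which encodes a sensor of cytosolic DNA, was measured at 21.5, 75.0 and 67.5 CPM at 0 h and at 5.57, 34.02 and 38.6 CPM at 24 h. Values of the mouse labelled WT 1 were low at both times and close to those of the Aim2-/- mice, which had 15.7, 20.1 and 19.0 CPM at 0 h and 6.55, 7.15 and 5.28 CPM at 24 h, so the libraries labelled WT 1 went against their label. How the gene was inactivated is not stated in the sources used here, and reads of the Aim2-/- mice on Aim2 do not by themselves go against their label. Without the libraries labelled WT 1, 10970 genes were called in place of 11694, and the counts of each list of genes without them, and its median where one is given, follow in parentheses after its own (without WT 1). Within the libraries labelled WT, Aim2 fell after stimulation (log2 fold change -1.19 ± 0.17, adjusted p = 1.09e-06), although the groups overlapped because of the low mouse, and the call was lost in a fit that did not pair the libraries by mouse (adjusted p = 0.0744). Without the libraries labelled WT 1, the paired fit gave a log2 fold change of -0.97 (adjusted p = 3.86e-06).

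The 6 markers of CD4+ T cells, among them Cd3e, Cd4 and Trac, summed to 3892, 4035 and 4071 CPM at 0 h and to 2857, 2825 and 2774 CPM at 24 h. The 8 B cell markers summed to 8.62 to 11.01 CPM at 0 h and 4.16 to 5.17 CPM at 24 h, the 9 myeloid markers to 36.1 to 63.9 and 15.2 to 26.3 CPM, and the 6 natural killer cell markers to 49.5 to 66.0 and 20.4 to 30.7 CPM. The 3 plasma cell markers summed to 164.6, 52.8 and 40.4 CPM at 0 h and to 26.9, 9.77 and 11.4 CPM at 24 h, highest in the mouse labelled WT 1 at both times. Immunoglobulin transcripts were not low beside the T cell markers, since the 231 immunoglobulin segments summed to 3533, 1246 and 1314 CPM at 0 h and to 736.3, 424.9 and 450.7 CPM at 24 h, again highest in WT 1. Of the 10 marker lists, those for CD8 T cells, erythroid cells, platelets, and basophils and mast cells overlapped between 0 h and 24 h, and the erythroid list was highest in mouse WT 3 at 0 h with 71.8 CPM. The part of these cells in the results below was not tested.

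The 24 h change reached most of the transcriptome. Of 15325 genes tested, 11694 were called (76.3%), 5922 higher (38.6%) and 5772 lower (37.7%), and 11491 of them moved in the same direction in all 3 mice. A log2 fold change above 1, a doubling, was called in 3816 genes (24.9%), and one under -1 in 3640 genes (23.8%). Beyond 3 and -3 on the same scale lay 764 (4.99%) and 737 genes (4.81%). In 11740 genes (76.6%) the 3 values of one group all lay above the 3 values of the other. The genes that rose by over 1 took 10.5 ± 0.189% of all counts at 0 h and 38.4 ± 0.735% at 24 h (SD, n = 3), and those that fell by over 1 took 37.1 ± 0.467% and 10.3 ± 0.481%. The numbers of genes detected hardly differed, with 20107 to 20425 genes of at least 1 count at 0 h and 19702 to 20281 at 24 h (exact permutation test, two-sided p = 0.3; the smallest p that 3 against 3 libraries allow is 0.1). With so many genes called, a count of called members means little by itself, and the groups of genes below are described by direction and size beside these background shares.

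Among genes that reached a mean of 10 CPM in one group and did not overlap between the groups, the 12 largest rises were in genes of several kinds. Il3, a growth factor for myeloid progenitors at chr11:54265303-54267277, had no read at 0 h and 14.04, 13.9 and 21.3 CPM at 24 h, which is at least 108-fold higher (3 counts per library taken as the floor). Crabp2, a retinoic acid binding protein, had 3 counts in all at 0 h and 78.4, 107 and 139.8 CPM at 24 h, a ratio of 2130 with an exact 95% interval of 729 to 10300. Edn1, the precursor of the vasoconstrictor endothelin 1, had 2 counts at 0 h and 15.6, 12.4 and 14.3 CPM at 24 h, a ratio of 417 (115 to 3450). Hpdl, a mitochondrial dioxygenase, had 3 counts at 0 h and 11.9, 13.4 and 12.4 CPM at 24 h, a ratio of 247 (84.2 to 1200). That these genes were read at 24 h in each of the 3 mice follows from the condition of no overlap.

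Il2 itself was detected in unstimulated cells at 1.85, 1.34 and 1.57 CPM and reached 139, 149 and 148 CPM at 24 h (log2 fold change 6.54 ± 0.24, adjusted p = 5.65e-16), with little spread among the mice. The branched-chain aminotransferase gene Bcat1 went from 2.85, 2.95 and 2.23 to 207, 194 and 181 CPM (log2 fold change 6.20 ± 0.25, adjusted p = 2.14e-15). Dctd, a deaminase of deoxycytidylate on the path to thymidylate, went from 1.20, 1.03 and 0.7099 to 65.7, 66.4 and 62.8 CPM (log2 fold change 6.04 ± 0.18, adjusted p = 4.64e-17). The remaining large rises were the chemokines described below and Hist1h2bj, a histone H2B gene, which had 0.200, 0 and 0 CPM at 0 h and 10.1, 13.1 and 11.2 CPM at 24 h; because its 0 h libraries held almost no read, its fold change is not given. The plot of the largest rises and falls shows the margin between the groups, whose separation was a condition of the choice.

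**Figure D1:**
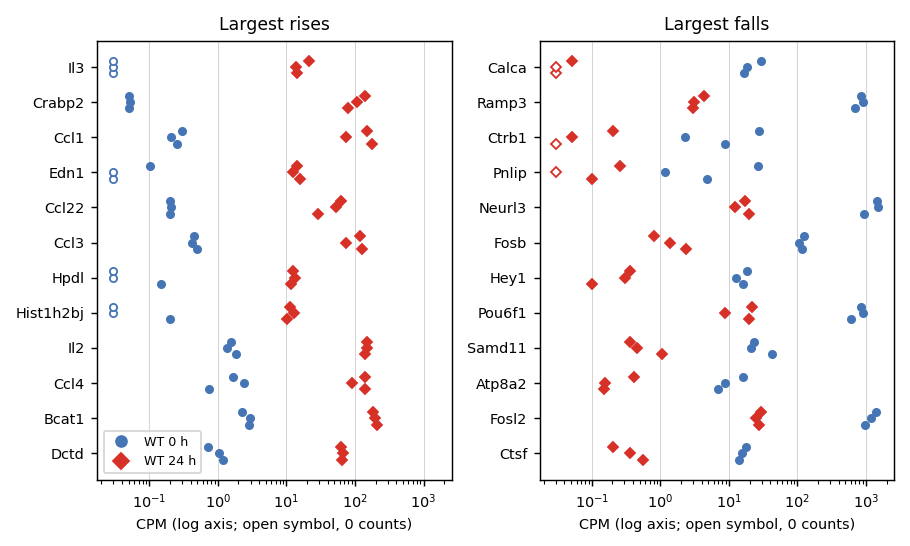
Level of each of the 12 genes with the largest rises (left) and the 12 with the largest falls (right) in the 3 WT mice at 0 h (circles) and 24 h (diamonds), in CPM on a log axis. Open symbols stand for 0 counts and are drawn at the left edge. In every gene all 3 values of one time lie above all 3 values of the other, as the choice of genes required.

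By the same conditions, the largest falls were in genes of several kinds. Calca, which encodes calcitonin and the neuropeptide CGRP, had 16.4, 18.6 and 28.96 CPM at 0 h and a single read over the 3 libraries at 24 h, a ratio of 1250 with an exact 95% interval of 224 to 49400. Ramp3, whose protein makes the receptor of the related peptide adrenomedullin together with the calcitonin receptor-like receptor, fell from 681, 902 and 839 to 2.99, 3.13 and 4.36 CPM (log2 fold change -7.85 ± 0.21, adjusted p = 1.51e-17). Neurl3, an E3 ubiquitin ligase, fell from 925, 1510 and 1442 to 19.7, 12.4 and 17.1 CPM (log2 fold change -6.28 ± 0.20, adjusted p = 1.43e-16). Ramp3 and Neurl3 were not rare transcripts at 0 h in any mouse.

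Fosl2 and Fosb, partners of Jun proteins in the AP-1 transcription factor, were also among the largest falls. Fosl2 went from 981, 1191 and 1388 to 27.4, 24.7 and 29.8 CPM (log2 fold change -5.43 ± 0.13, adjusted p = 3.28e-18) and Fosb from 118, 105 and 123 to 2.38, 1.39 and 0.821 CPM (log2 fold change -6.22 ± 0.21, adjusted p = 1.75e-16). Pou6f1, a homeobox factor, fell from 606, 889 and 856 to 19.4, 8.79 and 21.5 CPM (log2 fold change -5.58 ± 0.25, adjusted p = 1.35e-14). Hey1, Samd11, Atp8a2 and the cathepsin gene Ctsf lay between -5.91 and -5.39 on the log2 scale. The other 2 of the 12 falls, Ctrb1 and Pnlip, are digestive enzymes of the exocrine pancreas and are described with the variation among mice.

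To follow the response by function, 38 lists of genes were counted. The medians of 22 lists were above 0.4, and those of 13 lists were below -0.2, against a median of -0.01 over all genes tested. The plot of the lists orders them, and the medians of the 3 mice lay on the same side of 0 in every list other than those for interferon-stimulated, cytotoxic granule, and survival and apoptosis genes.

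**Figure D2:**
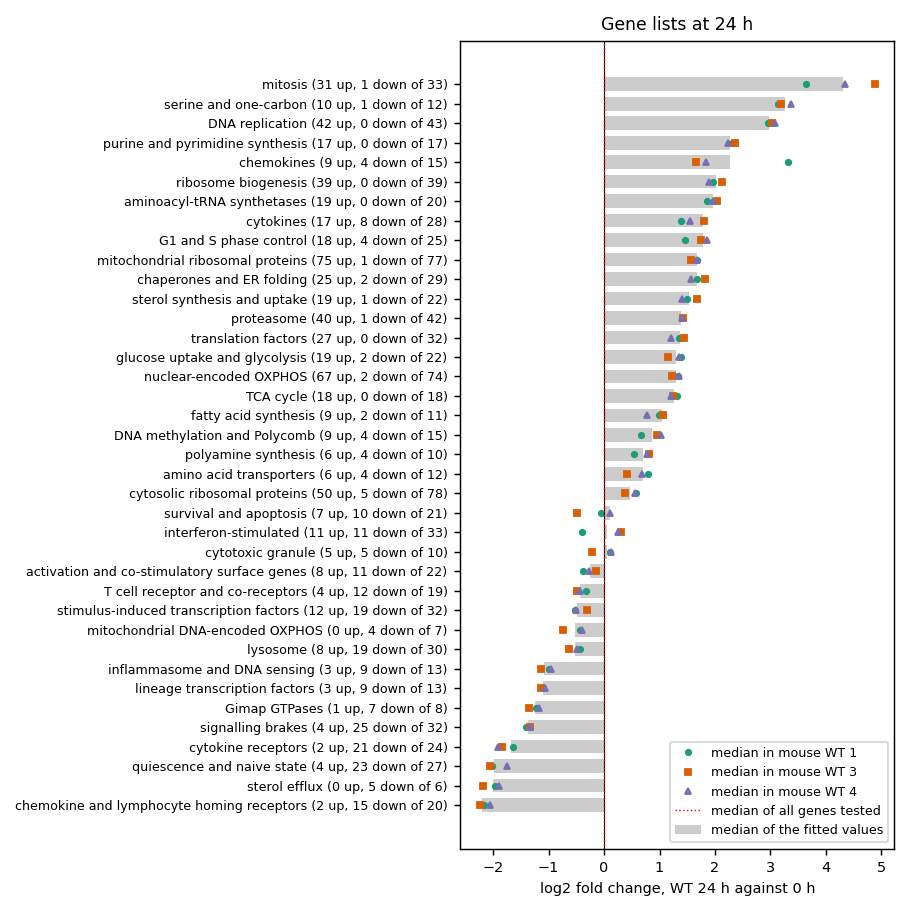
Median log2 fold change of WT 24 h over 0 h for each list of genes, from the fit (bars) and in each mouse (symbols). Labels give the members called higher and lower of those tested. Mitosis genes are highest with 4.31 and chemokine and lymphocyte homing receptors lowest with -2.21. The dotted line is the median of all genes tested.

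The T cell receptor and its co-receptors changed little in size. Of 19 genes tested, 12 fell and 4 rose, with a median of -0.43 (4 higher, 13 lower and a median of -0.45 without WT 1). The CD3 chains and the constant region Trac fell by less than 1, while the constant region Trbc2 was not called (log2 fold change -0.14 ± 0.09, adjusted p = 0.179). Cd3g went from 426, 446 and 449 to 264, 262 and 258 CPM (log2 fold change -0.75 ± 0.08, adjusted p = 6.89e-09) and Trac from 815, 913 and 941 to 644, 654 and 650.5 CPM (log2 fold change -0.45 ± 0.10, adjusted p = 4.06e-04). The co-receptor Cd4 itself went from 898, 927 and 875 to 599.5, 580 and 530.4 CPM (log2 fold change -0.66 ± 0.10, adjusted p = 5.55e-06). A larger fall was measured in the co-stimulatory receptor Cd28, from 599.6, 456 and 555 to 205, 230.4 and 183 CPM (log2 fold change -1.38 ± 0.11, adjusted p = 1.43e-10). Lcp2, which encodes the adaptor SLP-76, went the other way, from 319, 272 and 320.1 to 619, 678 and 653 CPM (log2 fold change 1.10 ± 0.10, adjusted p = 2.53e-09). The mRNAs of the receptor chains, the co-stimulatory receptor and the adaptor therefore moved by unequal amounts.

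Surface proteins that are used to recognise activated T cells moved in both directions, 8 higher and 11 lower of 22, with a median of -0.26 (7 higher, 10 lower and a median of -0.21 without WT 1). Il2ra, the alpha chain that gives the interleukin 2 receptor its high affinity, rose from 92.6, 84.6 and 124 to 775, 759.9 and 781 CPM (log2 fold change 2.95 ± 0.14, adjusted p = 2.99e-14). Tfrc, the transferrin receptor for iron uptake, rose from 54.2, 45.7 and 46.5 to 552, 602 and 502 CPM (log2 fold change 3.50 ± 0.15, adjusted p = 1.04e-14), and Cd200, a ligand of an inhibitory myeloid receptor, from 38.96, 22.2 and 24.2 to 459.7, 488 and 406 CPM (log2 fold change 4.03 ± 0.14, adjusted p = 2.62e-16). Lag3, an inhibitory receptor for MHC class II, went from 75.5, 17.7 and 19.1 to 223, 194 and 209 CPM (log2 fold change 2.88 ± 0.29, adjusted p = 9.75e-09).

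Among those that fell were the ecto-nucleotidase CD73 and the inhibitory receptor CTLA-4. Nt5e, the gene of CD73, went from 473, 245 and 323 to 36.5, 16.1 and 26.6 CPM (log2 fold change -3.73 ± 0.14, adjusted p = 6.58e-16). Ctla4 went from 502, 355 and 386 to 136, 78.1 and 96.96 CPM (log2 fold change -2.02 ± 0.12, adjusted p = 1.43e-12). The early activation marker Cd69 was lower at 24 h, at 185, 216 and 199.5 CPM, than at 0 h, at 354, 260.4 and 275 CPM (log2 fold change -0.57 ± 0.14, adjusted p = 7.27e-04; -0.37 and adjusted p = 0.0234 without the mouse labelled WT 1). Tnfrsf9, the co-stimulatory receptor 4-1BB, had 229, 174 and 229 CPM at 0 h and 206, 181 and 215 CPM at 24 h (adjusted p = 0.625).

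Of 28 cytokine genes tested, 17 rose and 8 fell, with a median of 1.78 (16 higher, 7 lower and a median of 1.81 without WT 1). Besides Il3 and Il2, Ifng, the gene of interferon gamma, went from 16.1, 9.82 and 15.9 to 103, 63.3 and 121 CPM (log2 fold change 2.77 ± 0.25, adjusted p = 1.59e-09). Tnf went from 37.4, 26.7 and 30.1 to 163, 151 and 154 CPM (log2 fold change 2.32 ± 0.16, adjusted p = 1.24e-11), and Csf2, the gene of GM-CSF, from 0.6001, 0.569 and 1.57 to 12.3, 7.55 and 18.8 CPM (log2 fold change 3.82 ± 0.23, adjusted p = 1.21e-12). Il4, the signature cytokine of Th2 cells, was low at 0 h and 24 h, with 3.901, 3.72 and 5.02 and 8.92, 11.8 and 21.4 CPM (log2 fold change 1.68 ± 0.24, adjusted p = 1.80e-06). Its level at 6 h was higher and is given below. Il9 and Il24 had no read at 0 h and 2.53, 0.925 and 2.52 and 0.709, 0.771 and 1.69 CPM at 24 h, at least 13.1-fold and at least 6.94-fold higher. The genes of 3 of these cytokines lie on chromosome 11, at chr11:53602982-53618669 for Il4, chr11:54247271-54249667 for Csf2 and chr11:54265303-54267277 for Il3, and moved by different amounts.

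Other cytokine genes went down. Fasl, the death receptor ligand, fell from 48.4, 57.9 and 76.4 to 15.0, 11.6 and 18.9 CPM (log2 fold change -2.01 ± 0.15, adjusted p = 4.25e-11), Il16 from 464, 527 and 540.5 to 155, 166 and 158 CPM (log2 fold change -1.67 ± 0.11, adjusted p = 8.63e-12), and Ltb, a membrane-bound member of the tumour necrosis factor family, from 401, 527 and 452 to 157, 135 and 170.5 CPM (log2 fold change -1.57 ± 0.12, adjusted p = 1.38e-10). Il21 went from 30.1, 10.1 and 11.97 to 6.38, 3.803 and 6.06 CPM (log2 fold change -1.56 ± 0.23, adjusted p = 2.89e-06). Il10 was at 46.4, 21.97 and 18.8 CPM at 0 h and 19.96, 5.45 and 9.496 CPM at 24 h (log2 fold change -1.38 ± 0.21, adjusted p = 5.10e-06), with overlap between the groups. Summed over the list, cytokine mRNA took 0.177 ± 0.0103% of all counts at 0 h and 0.167 ± 0.0154% at 24 h (SD, n = 3), so that rises and falls of single genes left the sum within the spread of the mice (exact permutation test, two-sided p = 0.5).

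Chemokine genes were led by ligands of the inflammatory type, with 9 of 15 higher and 4 lower, with a median of 2.27 (8 higher, 4 lower and a median of 1.76 without WT 1). Ccl1, at chr11:82176657-82305690, went from 0.250, 0.207 and 0.304 to 176, 73.7 and 149 CPM (log2 fold change 9.04 ± 0.52, adjusted p = 8.02e-13). Ccl3 and Ccl4, inflammatory chemokines on the same chromosome, went from 0.5001, 0.413 and 0.456 to 126, 73.2 and 119 CPM (log2 fold change 7.82 ± 0.39, adjusted p = 7.44e-14) and from 0.7501, 2.38 and 1.67 to 138, 89.3 and 139 CPM (log2 fold change 6.23 ± 0.37, adjusted p = 1.20e-12). Ccl22 and Ccl17, the ligands of CCR4, lie side by side on chromosome 8; Ccl22 went from 0.200, 0.207 and 0.203 to 29.1, 52.2 and 62.1 CPM (log2 fold change 7.85 ± 0.33, adjusted p = 6.20e-15), and Ccl17 from 2 counts in all to 2.74, 3.597 and 6.83 CPM, a ratio of 129 (95% interval 35.4 to 1070). Ccl5, which resting memory T cells store as mRNA, fell from 160.3, 118 and 129 to 8.51, 3.44 and 5.03 CPM (log2 fold change -4.61 ± 0.19, adjusted p = 3.10e-15) although it lies between the rising genes of the chromosome 11 cluster, at chr11:83525778-83530518.

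Receptors for chemokines and for homing went down almost as a group, 15 of 20 lower and 2 higher, with a median of -2.21 (3 higher, 15 lower and a median of -2.09 without WT 1). S1pr1, through which lymphocytes leave lymphoid organs, fell from 1297, 1470 and 1614 to 40.03, 33.7 and 53.95 CPM (log2 fold change -5.11 ± 0.16, adjusted p = 1.02e-16). Cxcr4 fell from 514, 475 and 481 to 21.7, 7.66 and 13.8 CPM (log2 fold change -5.16 ± 0.23, adjusted p = 1.05e-14), and Ccr7, which guides cells into lymph nodes, from 1254, 2101 and 1877 to 229, 288 and 281 CPM (log2 fold change -2.69 ± 0.10, adjusted p = 7.17e-16). Ccr4 was one of the exceptions and rose from 44.1, 22.2 and 28.1 to 206, 210 and 186 CPM (log2 fold change 2.68 ± 0.18, adjusted p = 8.53e-12). Both the receptor CCR4 and the genes of its ligands were therefore higher at 24 h.

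Cytokine receptors followed the same direction, with 21 of 24 lower and 2 higher, with a median of -1.68 (2 higher, 21 lower and a median of -1.82 without WT 1). Il7r, whose protein receives the survival signal of interleukin 7, fell from 969, 895 and 973 to 34.1, 24.4 and 39.5 CPM (log2 fold change -4.88 ± 0.17, adjusted p = 2.66e-16), which was the largest fall of the list. Ifngr1 went from 986, 1194 and 1338 to 77.4, 71.4 and 115 CPM (log2 fold change -3.75 ± 0.10, adjusted p = 1.29e-17), Tgfbr2 from 657, 819 and 859 to 86.95, 84.5 and 91.4 CPM (log2 fold change -3.14 ± 0.11, adjusted p = 2.40e-16), and Il18r1 from 176, 126 and 147 to 9.63, 7.35 and 11.3 CPM (log2 fold change -4.0 ± 0.15, adjusted p = 1.03e-15). The exceptions were Il12rb1, from 10.6, 6.72 and 7.201 to 332, 360.4 and 346 CPM (log2 fold change 5.42 ± 0.25, adjusted p = 2.12e-14), and Il15ra, from 6.801, 4.60 and 3.25 to 29.2, 30.4 and 32.9 CPM (log2 fold change 2.68 ± 0.23, adjusted p = 4.28e-10). The second chain of the interleukin 12 receptor, Il12rb2, moved opposite to the first, from 53.01, 62.7 and 102 to 15.2, 31.2 and 28.7 CPM (log2 fold change -1.53 ± 0.18, adjusted p = 1.20e-07). Il2rb, the beta chain of the interleukin 2 receptor, had 728, 574 and 772 and 593, 623 and 584 CPM (log2 fold change -0.19 ± 0.10, adjusted p = 0.0805).

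Genes of quiescence and of the naive state were lower in 23 of 27 cases, with a median of -1.99 (4 higher, 23 lower and a median of -1.86 without WT 1). Klf2, a transcription factor that keeps T cells quiescent and activates S1pr1, fell from 686, 790.3 and 878 to 40.5, 30.8 and 62.4 CPM (log2 fold change -4.17 ± 0.17, adjusted p = 4.50e-15). Txnip, an inhibitor of glucose uptake, fell from 982, 1152 and 1156 to 69.2, 59.1 and 91.01 CPM (log2 fold change -3.92 ± 0.13, adjusted p = 1.43e-16), and Tsc22d3, the glucocorticoid-induced leucine zipper, from 366, 367 and 432 to 18.3, 15.4 and 30.9 CPM (log2 fold change -4.21 ± 0.13, adjusted p = 9.99e-17). Tcf7 and Lef1, the transcription factors of naive and memory T cells, fell less, Tcf7 from 1727, 2078 and 1997 to 598, 645 and 634 CPM (log2 fold change -1.63 ± 0.11, adjusted p = 1.19e-11) and Lef1 from 525, 797 and 777 to 214, 238 and 229.7 CPM (log2 fold change -1.60 ± 0.10, adjusted p = 6.51e-12). The 4 members that rose were led by Dapl1 with 7.85, 9.98 and 9.79 and 53.2, 59.3 and 48.2 CPM (log2 fold change 2.55 ± 0.14, adjusted p = 2.26e-13).

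The Gimap genes, a cluster on chromosome 6 that encodes GTPases needed for lymphocyte survival, were lower in 7 of 8 cases, with a median of -1.25 (1 higher, 7 lower and a median of -1.26 without WT 1). Gimap6 fell from 1871, 2139 and 2142 to 253, 265 and 286 CPM (log2 fold change -2.93 ± 0.07, adjusted p = 4.83e-18) and Gimap3 from 1618, 2334 and 2178 to 431, 412 and 489 CPM (log2 fold change -2.19 ± 0.11, adjusted p = 4.55e-14). Gimap5, at chr6:48746197-48754210 and next to Gimap3 at chr6:48764464-48770851, rose from 63.01, 78.7 and 74.8 to 106, 102 and 103 CPM (log2 fold change 0.54 ± 0.11, adjusted p = 1.18e-04). Together the 8 genes took 0.577 ± 0.0561% of all counts at 0 h and 0.148 ± 0.0111% at 24 h (SD, n = 3).

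Transcription factors that stimulation induces early were divided at 24 h, 12 higher and 19 lower of 32, with a median of -0.48 (11 higher, 18 lower and a median of -0.40 without WT 1). The lower ones included most AP-1 and Nr4a members, which are known to peak within the first hours. Besides Fosl2 and Fosb, Fos fell from 75.7, 89.99 and 87.8 to 6.89, 9.51 and 6.52 CPM (log2 fold change -3.47 ± 0.12, adjusted p = 4.89e-16), Jun from 90.3, 90.5 and 109.9 to 26.1, 28.9 and 40.7 CPM (log2 fold change -1.62 ± 0.13, adjusted p = 3.07e-10) and Nr4a1 from 959.5, 917 and 1108 to 188, 204 and 212 CPM (log2 fold change -2.31 ± 0.17, adjusted p = 2.84e-11). These genes were thus already expressed in the cells taken as unstimulated.

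Among the 12 higher ones, Myc, the driver of biosynthetic growth, rose from 79.96, 76.5 and 77.03 to 589, 706 and 718 CPM (log2 fold change 3.10 ± 0.14, adjusted p = 1.44e-14), and Irf4 from 312, 181 and 260 to 1011, 1154 and 1098 CPM (log2 fold change 2.12 ± 0.16, adjusted p = 1.08e-10). Irf8 rose more, from 16.6, 29.5 and 23.6 to 724, 726 and 712 CPM (log2 fold change 4.98 ± 0.26, adjusted p = 1.30e-13). Batf3, a partner of IRF proteins, went from 0.10, 0.207 and 0.203 to 3.901, 6.01 and 7.34 CPM (log2 fold change 5.04 ± 0.37, adjusted p = 4.16e-11), and Fosl1 from 0.8502, 0.155 and 0.507 to 23.8, 20.97 and 23.2 CPM (log2 fold change 5.47 ± 0.37, adjusted p = 1.06e-11), in contrast to its relatives Fos, Fosb and Fosl2.

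Of 13 transcription factors that define T helper lineages, 9 fell and 3 rose, with a median of -1.10 (3 higher, 9 lower and a median of -1.10 without WT 1). Tbx21, which encodes the Th1 factor T-bet, rose from 26.2, 17.4 and 20.6 to 221, 247 and 244 CPM (log2 fold change 3.47 ± 0.22, adjusted p = 3.33e-12), Gata3, the Th2 factor, from 103, 88.2 and 102 to 121, 137 and 169 CPM (log2 fold change 0.54 ± 0.08, adjusted p = 4.26e-06), and Zbtb7b, which commits cells to the CD4 lineage, from 51.6, 47.5 and 58.8 to 122, 131 and 118 CPM (log2 fold change 1.24 ± 0.12, adjusted p = 4.99e-09). Rora fell from 176, 118 and 172 to 4.92, 3.29 and 5.80 CPM (log2 fold change -5.05 ± 0.15, adjusted p = 4.28e-17), Bcl6, the factor of follicular helper cells, from 168, 149.9 and 176 to 20.2, 15.9 and 15.7 CPM (log2 fold change -3.27 ± 0.12, adjusted p = 7.17e-16), and Foxp3, the factor of regulatory T cells, from 112, 84.98 and 117 to 62.9, 34.5 and 49.9 CPM (log2 fold change -1.11 ± 0.15, adjusted p = 6.74e-07).

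Most genes of G1 and S phase control, which govern entry into the cell cycle, were higher at 24 h. Of 25 genes, 18 were higher and 4 lower, with a median of 1.78 (18 higher, 5 lower and a median of 1.80 without WT 1). Among the cyclins and their kinases, Cdk4 rose from 78.8, 83.2 and 84.5 to 698, 753 and 738 CPM (log2 fold change 3.15 ± 0.11, adjusted p = 2.01e-16), Ccnd2 from 222, 242 and 270.5 to 1174, 1226 and 1272 CPM (log2 fold change 2.32 ± 0.15, adjusted p = 3.53e-12), and Ccne1, the cyclin of S phase entry, from 9.202, 7.08 and 6.44 to 154, 178 and 163 CPM (log2 fold change 4.46 ± 0.24, adjusted p = 2.96e-13). E2f1, which activates replication genes, rose from 9.55, 10.4 and 8.06 to 109.8, 110.1 and 104 CPM (log2 fold change 3.54 ± 0.19, adjusted p = 2.08e-13). The 4 that fell were brakes of this step, the inhibitors Cdkn1b, from 372, 425 and 418 to 36.8, 32.1 and 39.7 CPM (log2 fold change -3.49 ± 0.13, adjusted p = 1.19e-15), and Cdkn1a, from 39.8, 41.8 and 56.4 to 16.01, 15.5 and 18.5 CPM (log2 fold change -1.46 ± 0.15, adjusted p = 1.77e-08), and the pocket proteins Rbl2, from 166, 180.1 and 183 to 42.9, 40.5 and 46.04 CPM (log2 fold change -2.03 ± 0.10, adjusted p = 4.08e-14), and Rb1, from 102, 79.7 and 99.5 to 37.9, 37.3 and 35.7 CPM (log2 fold change -1.33 ± 0.10, adjusted p = 1.03e-10).

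DNA replication genes rose in 42 of 43 cases and fell in none, with a median of 2.97 (42 higher, 0 lower and a median of 3.04 without WT 1). The licensing and helicase factors Mcm10 and Gins1 went from 6.85, 3.26 and 3.85 to 193, 209.8 and 184 CPM (log2 fold change 5.45 ± 0.29, adjusted p = 2.55e-13) and from 3.001, 1.96 and 1.27 to 63.3, 70.6 and 70.2 CPM (log2 fold change 5.05 ± 0.25, adjusted p = 8.54e-14). Rrm2, the small subunit of ribonucleotide reductase, went from 22.8, 11.8 and 14.5 to 544, 598 and 541 CPM (log2 fold change 5.18 ± 0.26, adjusted p = 9.20e-14), and Tyms, thymidylate synthase, from 10.9, 6.46 and 5.83 to 174, 200.5 and 178 CPM (log2 fold change 4.63 ± 0.21, adjusted p = 1.38e-14). The sliding clamp gene Pcna rose less, from 104, 96.7 and 107 to 487, 573 and 519.7 CPM (log2 fold change 2.36 ± 0.10, adjusted p = 5.63e-15). In the mouse labelled WT 1 the 0 h levels of Mcm10, Gins1, Rrm2 and Tyms were the highest of the 3 mice, whereas that of Pcna was not.

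The promoters of replication genes were read for a binding site of E2F factors, searched as GCGGGAA on both strands from 250 bases before to 50 bases after the start in RefSeq (GRCm38.p6). The site was in 14 of 41 windows of 35 replication genes (34.1%) and in 7.97% of the 13486 windows of 10598 tested genes. Its first base lay within 50 bases of the start in 22.0% of the replication windows and in 2.9% of all windows. Shown are the 100 bases before the start of 3 of the genes that hold the site within those 100 bases, chosen because they hold it, so that the spacing of the letters can be seen, with the E2F site and any CCAAT box, the site of the factor NF-Y, in capitals (both also as their reverse complements TTCCCGC and ATTGG). Rrm1 encodes the large subunit of ribonucleotide reductase, Rpa2 a subunit of the single-strand binding protein and Gins3 a subunit of the replicative helicase. Their site starts 67, 37 and 41 bases before the start, and all 3 genes rose.
Rrm1 (chr7:102441595-102441694, plus strand): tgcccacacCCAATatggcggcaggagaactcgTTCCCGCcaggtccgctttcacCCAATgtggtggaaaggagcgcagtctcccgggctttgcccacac
Rpa2 (chr4:132768260-132768359, plus strand): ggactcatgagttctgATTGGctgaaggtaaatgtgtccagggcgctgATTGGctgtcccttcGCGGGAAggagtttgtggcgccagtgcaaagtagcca
Gins3 (chr8:95633459-95633558, plus strand): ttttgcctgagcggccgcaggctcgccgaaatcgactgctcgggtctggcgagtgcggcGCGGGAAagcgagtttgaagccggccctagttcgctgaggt

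Genes of mitosis had the highest median of all lists, 4.31 (31 higher, 1 lower and a median of 4.61 without WT 1), with 31 of 33 higher and 1 lower. Cdk1, the kinase that drives entry into mitosis, rose from 10.5, 6.31 and 6.04 to 290.2, 305 and 265 CPM (log2 fold change 5.31 ± 0.26, adjusted p = 4.74e-14), and its partner Ccnb1 from 2.20, 1.08 and 0.406 to 37.95, 42.8 and 34.1 CPM (log2 fold change 5.04 ± 0.35, adjusted p = 1.35e-11; 5.69 without WT 1). Ube2c and Cdc20, which serve the anaphase-promoting complex, went from 7.25, 3.31 and 3.75 to 182, 167 and 159 CPM (log2 fold change 5.24 ± 0.24, adjusted p = 2.46e-14) and from 9.702, 6.51 and 7.91 to 137, 139 and 119 CPM (log2 fold change 4.06 ± 0.21, adjusted p = 1.77e-13). Mki67, the gene of the proliferation marker Ki-67, went from 99.8, 37.4 and 48.4 to 839, 947 and 797 CPM (log2 fold change 3.97 ± 0.28, adjusted p = 2.55e-11), and Top2a, the topoisomerase of chromosome segregation, from 82.1, 28.8 and 43.6 to 1023, 1156 and 973 CPM (log2 fold change 4.52 ± 0.29, adjusted p = 4.30e-12). In Cdk1, Ccnb1, Ube2c, Cdc20, Mki67 and Top2a the mouse labelled WT 1 had the highest value at 0 h. The median change of the list was 3.64, 4.88 and 4.34 in the mice labelled WT 1, WT 3 and WT 4. Cenpa, the centromeric histone, was the member that fell, from 146, 178 and 171 to 113, 95.6 and 94.7 CPM (log2 fold change -0.72 ± 0.12, adjusted p = 1.53e-05). The list as a whole took 0.0597 ± 0.0142% of all counts at 0 h and 0.538 ± 0.0328% at 24 h (SD, n = 3).

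The promoters of mitosis genes carry a different letter pattern, the cell cycle homology region (CHR), searched as TTTGAA on both strands. It was in 20 of 28 windows of 27 mitosis genes (71.4%) and in 12.4% of all windows, and its first base lay within 50 bases of the start in 64.3% against 3.16%. No mitosis window held the E2F letters, and the CCAAT box was in 75.0% of them against 37.5% of all windows. The 100 bases before the start of 4 mitosis genes, chosen because they hold the element, are shown with the CHR (TTTGAA or its reverse complement TTCAAA) and the CCAAT box in capitals. In Cdk1 the element starts 71 and 15 bases before the start, in Cdc20 18, in Kif11, a spindle motor gene, 19, and in Ube2c 29 bases before it. A match describes the letters and is not evidence of binding.
Cdk1 (chr10:69352913-69353012, minus strand): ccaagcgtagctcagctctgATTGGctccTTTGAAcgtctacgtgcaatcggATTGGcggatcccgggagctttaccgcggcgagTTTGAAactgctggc
Cdc20 (chr4:118437344-118437443, minus strand): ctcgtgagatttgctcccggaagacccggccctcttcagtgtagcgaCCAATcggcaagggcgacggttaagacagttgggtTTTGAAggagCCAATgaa
Kif11 (chr19:37376282-37376381, plus strand): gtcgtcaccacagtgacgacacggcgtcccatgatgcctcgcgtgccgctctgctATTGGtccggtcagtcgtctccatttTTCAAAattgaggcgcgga
Ube2c (chr2:164769829-164769928, plus strand): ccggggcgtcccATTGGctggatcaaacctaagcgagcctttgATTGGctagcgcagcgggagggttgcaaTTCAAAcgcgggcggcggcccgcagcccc

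Genes of the protein synthesis machinery rose together. All 39 ribosome biogenesis genes rose, with a median of 2.02 (39 higher, 0 lower and a median of 2.01 without WT 1) and a range from 0.99 to 3.65. Ncl, the gene of nucleolin, went from 1102, 982 and 1077 to 5930, 7204 and 6484 CPM (log2 fold change 2.63 ± 0.11, adjusted p = 7.82e-15). Nhp2 and Gar1, proteins of the box H/ACA particles that modify ribosomal RNA, went from 25.4, 29.98 and 32.0 to 350, 382 and 364 CPM (log2 fold change 3.65 ± 0.16, adjusted p = 1.01e-14) and from 21.5, 25.4 and 20.3 to 226, 236 and 230.3 CPM (log2 fold change 3.38 ± 0.16, adjusted p = 4.17e-14). Polr1a, the largest subunit of RNA polymerase I, rose less, from 106, 145 and 134 to 245, 283 and 252 CPM (log2 fold change 1.02 ± 0.10, adjusted p = 4.88e-09). The list took 0.441 ± 0.00498% of all counts at 0 h and 2.10 ± 0.115% at 24 h (SD, n = 3).

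Translation factors rose in 27 of 32 cases and fell in none, with a median of 1.37 (27 higher, 1 lower and a median of 1.37 without WT 1). Eif2b3, a subunit of the exchange factor of eIF2, went from 10.2, 8.48 and 10.2 to 81.6, 91.7 and 91.4 CPM (log2 fold change 3.19 ± 0.14, adjusted p = 1.25e-14), and Eif4ebp1, the repressor of the cap-binding protein eIF4E, from 7.301, 7.86 and 6.95 to 38.1, 37.0 and 43.3 CPM (log2 fold change 2.42 ± 0.14, adjusted p = 8.81e-13). Mitochondrial ribosomal proteins rose in 75 of 77 cases and fell in 1, with a median of 1.68 (75 higher, 1 lower and a median of 1.61 without WT 1), led by Mrpl12, from 38.4, 47.7 and 47.8 to 346, 342 and 332 CPM (log2 fold change 2.93 ± 0.13, adjusted p = 1.19e-14). Cytosolic ribosomal proteins moved less, with 50 higher and 5 lower of 78 and a median of 0.47 (44 higher, 6 lower and a median of 0.42 without WT 1). Many of the latter have near-identical pseudogene copies, so their counts are uncertain.

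Aminoacyl-tRNA synthetases, which charge transfer RNAs with amino acids, rose in 19 of 20 cases, with a median of 1.97 (19 higher, 0 lower and a median of 2.02 without WT 1). Mars, the methionyl enzyme, went from 65.7, 74.8 and 74.95 to 355, 425 and 382 CPM (log2 fold change 2.43 ± 0.11, adjusted p = 1.14e-14) and Farsb, a chain of the phenylalanyl enzyme, from 38.3, 40.4 and 39.8 to 200.3, 228 and 212 CPM (log2 fold change 2.43 ± 0.10, adjusted p = 6.01e-15). Promoters of further lists were searched for elements too, without a like excess in each. A sterol response element, TCACNCCAC, was in 1 of 18 windows of sterol synthesis and uptake genes (5.56%) against 1.1% of all windows. An amino acid response element, the site of ATF4 complexes, was searched as TGATGNAA on both strands. It was in 5 of 12 synthetase windows (41.7%) against 2.34% of all windows. In all 5 it began within 50 bases of the start, against 0.66% of all windows. The same element was in 0 of 10 windows of the serine and one-carbon genes described below. The 100 bases before the start of Gars and Tars, the glycyl and threonyl enzymes, chosen because they hold the element, are shown with it in capitals; in both the letters lie on the opposite strand. Both genes rose.
Gars (chr6:55037901-55038000, plus strand): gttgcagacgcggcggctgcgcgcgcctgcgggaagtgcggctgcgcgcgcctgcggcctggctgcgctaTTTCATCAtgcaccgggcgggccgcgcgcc
Tars (chr15:11399659-11399758, minus strand): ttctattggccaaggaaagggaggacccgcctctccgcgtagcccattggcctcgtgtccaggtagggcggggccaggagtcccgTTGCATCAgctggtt

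Protein folding and turnover followed the same direction. Of 29 chaperone genes, 25 rose and 2 fell, with a median of 1.68 (25 higher, 2 lower and a median of 1.68 without WT 1). Hspd1, the mitochondrial chaperonin HSP60, went from 56.4, 46.2 and 49.1 to 799, 876 and 776 CPM (log2 fold change 4.01 ± 0.14, adjusted p = 4.79e-16), and its partner Hspe1 from 23.1, 20.9 and 15.6 to 125, 135 and 129 CPM (log2 fold change 2.72 ± 0.15, adjusted p = 2.25e-13). The genes that fell were the heat-inducible Hspa1a, from 6.801, 3.98 and 4.62 to 0.355, 0.3597 and 0.462 CPM (log2 fold change -3.68 ± 0.28, adjusted p = 6.07e-11), and its near-identical copy Hspa1b, from 10.1, 6.25 and 7.15 to 1.47, 1.49 and 0.821 CPM (log2 fold change -2.63 ± 0.23, adjusted p = 7.25e-10), whose reads could be split between them. Proteasome genes rose in 40 of 42 cases and fell in 1, with a median of 1.39 (40 higher, 0 lower and a median of 1.38 without WT 1), for example Psmd12 from 69.5, 66.2 and 65.5 to 252, 275 and 256 CPM (log2 fold change 1.96 ± 0.08, adjusted p = 2.30e-15).

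Glucose uptake and glycolysis genes rose in 19 of 22 cases and fell in 2, with a median of 1.30 (18 higher, 2 lower and a median of 1.25 without WT 1). Hk2, the inducible hexokinase that traps glucose in the cell, went from 6.901, 5.74 and 6.44 to 142, 162 and 140 CPM (log2 fold change 4.53 ± 0.19, adjusted p = 4.89e-15). Slc2a1, the glucose transporter GLUT1, rose less, from 51.6, 55.1 and 52.7 to 109.7, 110.4 and 97.5 CPM (log2 fold change 0.99 ± 0.07, adjusted p = 5.41e-11). Ldha, which makes lactate, went from 344, 379 and 372 to 1771, 1898 and 1737 CPM (log2 fold change 2.30 ± 0.11, adjusted p = 1.93e-14), while the lactate transporter gene Slc16a3 fell from 63.8, 45.02 and 56.5 to 14.7, 13.3 and 12.5 CPM (log2 fold change -2.02 ± 0.16, adjusted p = 9.66e-11). Several enzymes of the list, Ldha among them, have near-identical pseudogene copies, so their counts are uncertain. The whole list took 0.212 ± 0.00208% of counts at 0 h and 0.715 ± 0.0224% at 24 h (SD, n = 3).

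Mitochondrial energy genes encoded in the nucleus rose with them. All 18 TCA cycle genes were higher, with a median of 1.26 (18 higher, 0 lower and a median of 1.20 without WT 1), among them Fh1, fumarate hydratase, from 50.9, 42.5 and 41.6 to 219, 239 and 239 CPM (log2 fold change 2.37 ± 0.08, adjusted p = 2.98e-16). Of 74 nuclear genes of oxidative phosphorylation, 67 rose and 2 fell, with a median of 1.29 (67 higher, 3 lower and a median of 1.26 without WT 1). The genes on mitochondrial DNA went the other way. Of 13 such genes, 7 were tested, 4 fell and none rose, with a median of -0.52 (0 higher, 4 lower and a median of -0.58 without WT 1), and the remaining 6 are listed at 0 in every library. Their share of counts was 1.65 ± 0.228% at 0 h and 1.21 ± 0.0857% at 24 h (SD, n = 3).

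Serine and one-carbon metabolism, which supplies purines and thymidylate, had the second highest median of the lists, 3.27 (11 higher, 1 lower and a median of 3.54 without WT 1), with 10 of 12 higher and 1 lower. Shmt1, the cytosolic serine hydroxymethyltransferase, went from 6.25, 6.88 and 5.53 to 346, 401 and 366 CPM (log2 fold change 5.91 ± 0.21, adjusted p = 3.68e-16). Psat1 and Phgdh of serine synthesis went from 37.3, 29.98 and 29.6 to 499, 541 and 479 CPM (log2 fold change 3.97 ± 0.15, adjusted p = 1.70e-15) and from 10.3, 12.5 and 10.4 to 143, 146 and 148 CPM (log2 fold change 3.72 ± 0.10, adjusted p = 1.75e-17).

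All 17 genes of purine and pyrimidine synthesis rose, with a median of 2.27 (17 higher, 0 lower and a median of 2.30 without WT 1). Cad, which starts pyrimidine synthesis, went from 40.9, 38.2 and 44.5 to 630.4, 742 and 614 CPM (log2 fold change 3.99 ± 0.15, adjusted p = 1.20e-15), and Pfas of the purine path from 23.6, 27.03 and 25.9 to 384, 386 and 372 CPM (log2 fold change 3.90 ± 0.15, adjusted p = 1.04e-15). Polyamine genes were divided, 6 higher and 4 lower of 10, with a median of 0.71 (6 higher, 4 lower and a median of 0.79 without WT 1). Srm, spermidine synthase, rose from 12.3, 18.6 and 15.4 to 569.5, 591 and 566 CPM (log2 fold change 5.24 ± 0.19, adjusted p = 8.89e-16), while Odc1, the first enzyme of the path, fell from 688, 688 and 815 to 352, 328 and 304 CPM (log2 fold change -1.15 ± 0.10, adjusted p = 6.75e-10). Of 12 amino acid transporters, 6 rose and 4 fell, with a median of 0.71 (6 higher, 4 lower and a median of 0.58 without WT 1). Slc7a5, the light chain of the leucine transporter, went from 87.4, 103 and 116 to 389.5, 409 and 350.4 CPM (log2 fold change 1.90 ± 0.15, adjusted p = 2.11e-10).

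Cholesterol genes moved by role. Of 22 genes of sterol synthesis and uptake, 19 rose and 1 fell, with a median of 1.54 (18 higher, 1 lower and a median of 1.56 without WT 1), for example Sqle, squalene epoxidase, from 18.4, 16.1 and 22.8 to 104, 114 and 102 CPM (log2 fold change 2.48 ± 0.11, adjusted p = 7.28e-15). Of 6 genes listed under sterol efflux, 5 fell and none rose, with a median of -2.0 (0 higher, 5 lower and a median of -2.01 without WT 1). Abca1, the transporter that exports cholesterol, fell from 36.9, 55.4 and 38.2 to 1.27, 1.85 and 1.95 CPM (log2 fold change -4.68 ± 0.19, adjusted p = 4.36e-15). Mylip fell from 72.1, 105 and 83.2 to 7.803, 9.04 and 11.2 CPM (log2 fold change -3.20 ± 0.13, adjusted p = 2.94e-15). It was counted in the efflux list, although its protein degrades the LDL receptor and so acts on uptake. Fatty acid synthesis genes rose in 9 of 11 cases and fell in 2 (8 higher and 2 lower without WT 1). Fads2, a desaturase, went from 0.5001, 0.517 and 0.507 to 4.76, 5.86 and 6.06 CPM (log2 fold change 3.47 ± 0.38, adjusted p = 3.27e-08).

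Genes that restrain signalling were lower in 25 of 32 cases and higher in 4, with a median of -1.38 (5 higher, 24 lower and a median of -1.41 without WT 1). Dusp1, a phosphatase of MAP kinases, fell from 311, 262 and 314 to 10.7, 9.302 and 10.3 CPM (log2 fold change -4.87 ± 0.12, adjusted p = 7.37e-18), and Tnfaip3, the NF-kappaB inhibitor A20, from 2419, 2426 and 2891 to 102, 94.4 and 108 CPM (log2 fold change -4.66 ± 0.09, adjusted p = 3.86e-19). Dusp6, another MAP kinase phosphatase, rose from 20.4, 19.2 and 22.3 to 122, 117 and 105 CPM (log2 fold change 2.47 ± 0.18, adjusted p = 4.63e-11), and Socs2, an inhibitor of cytokine signals, from 6.601, 5.01 and 7.25 to 25.9, 16.96 and 20.5 CPM (log2 fold change 1.75 ± 0.16, adjusted p = 2.88e-09).

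Survival and apoptosis genes had no common direction, 7 higher and 10 lower of 21, with a median of 0.10 (8 higher, 9 lower and a median of 0.10 without WT 1). Bcl2l1, which encodes the survival protein BCL-XL, rose from 43.9, 39.7 and 44.1 to 362, 363 and 368 CPM (log2 fold change 3.10 ± 0.10, adjusted p = 1.40e-16). Bmf and Bbc3, which promote cell death, fell from 12.2, 7.03 and 9.03 to 0.861, 0.771 and 0.667 CPM (log2 fold change -3.60 ± 0.24, adjusted p = 9.89e-12) and from 22.9, 27.2 and 29.5 to 4.86, 3.96 and 5.75 CPM (log2 fold change -2.44 ± 0.17, adjusted p = 2.13e-11), while Bid, of the same family, rose from 17.4, 16.8 and 16.4 to 60.6, 61.2 and 60.3 CPM (log2 fold change 1.85 ± 0.10, adjusted p = 4.58e-13).

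Interferon-stimulated genes were split evenly, 11 higher and 11 lower of 33, with a median of 0.06 (14 higher, 11 lower and a median of 0.28 without WT 1). The guanylate-binding and immunity-related GTPases Gbp2 and Iigp1 rose, Gbp2 from 124, 78.05 and 84.4 to 729, 928 and 892 CPM (log2 fold change 3.15 ± 0.20, adjusted p = 3.04e-12) and Iigp1 from 40.5, 20.9 and 30.2 to 275, 266 and 368 CPM (log2 fold change 3.30 ± 0.18, adjusted p = 2.73e-13). Rsad2, the antiviral protein viperin, fell from 7.75, 3.101 and 5.38 to 0.253, 0.3597 and 1.03 CPM (log2 fold change -3.30 ± 0.33, adjusted p = 8.57e-09; -2.65 without WT 1 and -4.10 without WT 4), and Oasl1, of the oligoadenylate synthetase family, from 5.35, 5.22 and 9.33 to 1.37, 1.03 and 2.05 CPM (log2 fold change -2.17 ± 0.23, adjusted p = 2.64e-08).

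Several smaller groups complete the lists. Of 30 lysosomal genes 19 fell and 8 rose, with a median of -0.52 (7 higher, 19 lower and a median of -0.59 without WT 1). Ctsz, a cathepsin, went from 39.9, 37.5 and 37.8 to 161, 162 and 155 CPM (log2 fold change 2.05 ± 0.09, adjusted p = 1.93e-14). Cytotoxic granule genes were divided, 5 higher and 5 lower of 10, with a median of 0.05 (3 higher, 4 lower and a median of -0.04 without WT 1). Gzmb, granzyme B, rose from 7.15, 11.7 and 13.5 to 169, 145 and 227 CPM (log2 fold change 4.07 ± 0.19, adjusted p = 2.35e-14), and Gzmk, granzyme K, fell from 30.9, 14.1 and 8.67 to 4.05, 1.18 and 0.924 CPM (log2 fold change -3.14 ± 0.23, adjusted p = 5.35e-11). Inflammasome and DNA sensing genes, grouped by function, fell in 9 of 13 cases and rose in 3, with a median of -1.09 (3 higher, 8 lower and a median of -0.97 without WT 1). Casp1 went from 44.4, 20.6 and 22.4 to 13.3, 8.48 and 10.98 CPM (log2 fold change -1.36 ± 0.14, adjusted p = 1.01e-08). Among regulators of DNA methylation and Polycomb, 9 of 15 rose and 4 fell, with a median of 0.86 (9 higher, 4 lower and a median of 0.96 without WT 1). Uhrf1, which brings DNA methyltransferase 1 to replicated DNA, had the largest rise, from 20.5, 10.5 and 15.3 to 482, 548 and 482 CPM (log2 fold change 5.09 ± 0.28, adjusted p = 3.35e-13).

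Some pairs of related genes exchanged rank. Levels of 20 pairs were compared per kilobase of exon, as the log2 ratio of the first gene to the second in each mouse (mean ± SD, n = 3). In 7 pairs the order of the means changed, and in 6 of these it changed in every mouse, the exception being the transporters Slc7a5 and Slc7a6, whose levels were alike at 0 h. For the receptors of interleukin 2 and interleukin 7, Il2ra and Il7r, the ratio went from -3.55 ± 0.25 to 4.30 ± 0.34. Myc against Mxd4, a repressor at MYC sites, went from -0.48 ± 0.13 to 7.15 ± 0.32, and Ezh2 against Ezh1, the catalytic subunits of Polycomb complex 2, from -1.41 ± 0.34 to 3.79 ± 0.21. Bcl2l1 against Bcl2 went from -0.21 ± 0.03 to 2.71 ± 0.21. Other pairs kept their order in spite of large changes. Hk2 against Hk1 went from -3.98 ± 0.12 to -0.32 ± 0.06, so that both hexokinases were near one level at 24 h, and Nfatc1 against Nfatc2 hardly moved, from 1.68 ± 0.13 to 1.53 ± 0.01.

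**Figure D3:**
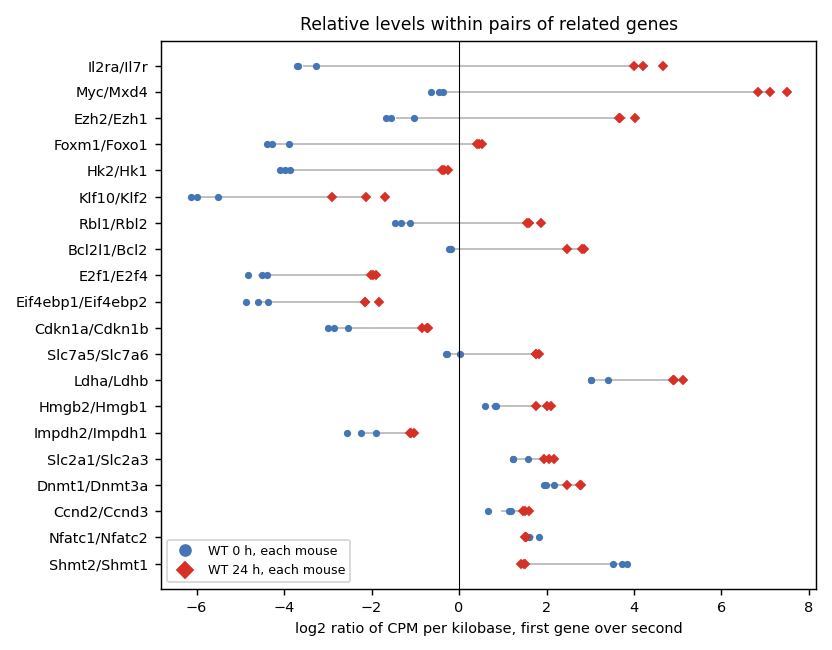
Log2 ratio of the levels (CPM per kilobase of exon) of the first to the second gene of 20 pairs, per WT mouse at 0 h and 24 h. A value of 0 means equal levels. The means of 7 pairs, such as Il2ra and Il7r, lie on opposite sides of 0 at 0 h and 24 h.

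To place the 24 h state in time, it was set against WT cells of the same mice at 6 h. Of 15325 genes, 10011 were called (65.3%), 5024 higher (32.8%) and 4987 lower (32.5%) at 24 h than at 6 h. Both contrasts share the 24 h libraries. The rise in mRNA of cell division genes belonged to the later part. All 33 mitosis genes and all 43 replication genes were higher at 24 h than at 6 h (medians 3.70 and 2.87). Division itself was not measured. Rrm2 was at 22.8, 11.8 and 14.5 CPM at 0 h, 18.4, 9.35 and 9.64 CPM at 6 h and 544, 598 and 541 CPM at 24 h, and Mcm10 at 7.76, 3.16 and 3.51 CPM at 6 h. At 6 h both genes were thus near their level in unstimulated cells.

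Ribosome biogenesis genes differed less between 6 h and 24 h, with a median of 0.45 for 24 h over 6 h and 30 of 39 higher at 24 h. Ncl was at 3303, 3583 and 3312 CPM at 6 h, and Myc was at 628, 824 and 719.6 CPM at 6 h against 589, 706 and 718 CPM at 24 h (log2 fold change -0.10 ± 0.13, adjusted p = 0.483). Il2ra stood at 948, 852 and 882 CPM at 6 h and 775, 759.9 and 781 CPM at 24 h (log2 fold change -0.21 ± 0.13, adjusted p = 0.150). Il2 was at 80.5, 53.2 and 64.2 CPM at 6 h and rose further to 24 h (log2 fold change 1.17 ± 0.16, adjusted p = 1.59e-06), whereas Ccl3 and Ccl4 were lower at 24 h than at 6 h (-0.98 and -1.11 on the log2 scale). Of 28 cytokine genes, 17 were lower at 24 h than at 6 h and 6 were higher (median -0.69). Il4 was at 58.04, 82.85 and 192.9 CPM at 6 h, above its 0 h and 24 h values in every mouse.

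Other genes were lower at 24 h than at 6 h. Of 33 interferon-stimulated genes, 31 were lower at 24 h than at 6 h and none was higher (median -1.60), although the same list had no common direction against 0 h. Gbp2 was at 1678, 1733 and 2449 CPM at 6 h, and Cxcl10, an interferon-induced chemokine, was at 20.4, 10.1 and 14.5 CPM at 0 h, 65.8, 48.0 and 75.6 CPM at 6 h and 4.71, 3.597 and 5.80 CPM at 24 h. Tnfrsf9, with like levels at 0 h and 24 h, was at 960.4, 862 and 878 CPM at 6 h. In Gbp2, Cxcl10 and Tnfrsf9 the 6 h value was thus above the 0 h and the 24 h value in every mouse, whereas Rsad2, with 4.301, 2.58 and 4.53 CPM at 6 h, was below its 0 h value in every mouse; 6 h was not tested against 0 h. The 6 h levels of Il7r and Klf2, 163, 123 and 167 and 183, 234 and 305 CPM, lay between those of 0 h and 24 h.

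**Figure D4:**
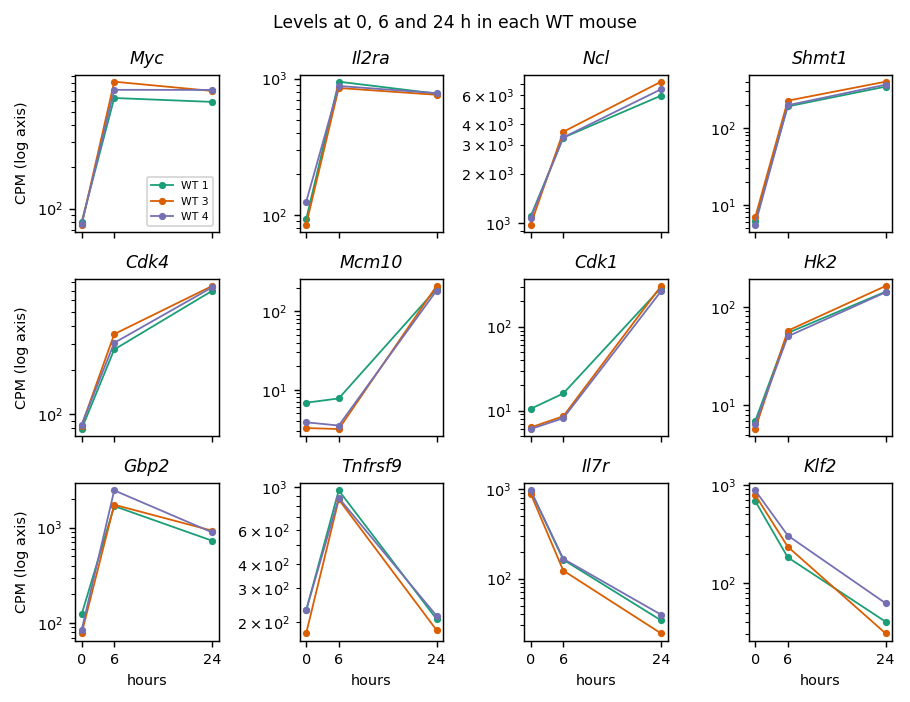
CPM of 12 genes in each WT mouse at 0 h, 6 h and 24 h, 1 line per mouse. Mcm10 and Cdk1 are high at 24 h alone, Ncl and Myc are high at 6 h and 24 h, and Gbp2 and Tnfrsf9 are highest at 6 h.

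The 24 h change of WT cells was also set against that of Aim2-/- cells. The difference between the responses was called in 424 of 15325 genes (2.77%), 230 with a more positive change in Aim2-/- cells (1.5%) and 194 with a more negative one (1.27%), that is, 54.2% more positive. With library totals alone as the scale, 482 were called and 64.5% were more positive. In 377 of the 424 (88.9%) the difference had the opposite sign to the WT change, against 65.9% of all genes tested. The WT change enters both quantities, so this share is a description. The number called depended on single mice. It was 660 without the mouse labelled WT 1, 6 without WT 3, 298 without WT 4, 21, 1186 and 72 without Aim2-/- mice 1, 2 and 4, and 0 (1825 at an unadjusted p under 0.05) where libraries were not paired by mouse. At an unadjusted p under 0.05 the main test gave 3139.

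The Aim2-/- libraries also differed in markers of other cells. Summed over 231 immunoglobulin segments, they held 19810, 12940 and 16410 CPM at 0 h and 4401, 1451 and 1947 CPM at 24 h, against 3533, 1246 and 1314 CPM and 736.3, 424.9 and 450.7 CPM in WT. Plasma cell markers summed to 735.4, 374.9 and 702.7 CPM in Aim2-/- cells at 0 h, and myeloid markers to 383.1, 108.9 and 181.6 CPM. The CD4+ T cell markers were alike, with 3834, 4118 and 4083 CPM at 0 h. Their part in the genotype difference was not tested.

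Of the 25 genes named here that were called for the difference, 4 were called whichever of the 6 mice was left out, Ctla2a, Ighm, Pdcd1 and Plek. Ctla2a, a cysteine protease inhibitor, went from 52.5, 68.4 and 75.4 to 4.36, 3.85 and 5.698 CPM in WT and from 77.9, 59.4 and 80.98 to 19.8, 8.26 and 14.9 CPM in Aim2-/- cells, a smaller fall (difference of log2 fold changes 1.42 ± 0.19, adjusted p = 8.79e-04). Pdcd1, the inhibitory receptor PD-1, went from 268, 141 and 180.1 to 216, 173 and 149.7 CPM in WT and from 489.9, 382 and 339.5 to 197, 177 and 152 CPM in Aim2-/- cells (difference -1.10 ± 0.14, adjusted p = 8.79e-04). Plek, the gene of pleckstrin, had a difference of -1.0 ± 0.13 (adjusted p = 8.79e-04). Ighm, an immunoglobulin gene, had a difference of -1.90 ± 0.24 (adjusted p = 8.79e-04). The responses of Il7r, Klf2, S1pr1 and Txnip were smaller falls in Aim2-/- cells, by 1.13, 0.83, 0.84 and 0.87 on the log2 scale, and all 4 lost the call without mouse WT 3 (adjusted p = 0.11 for Il7r).

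**Figure D5:**
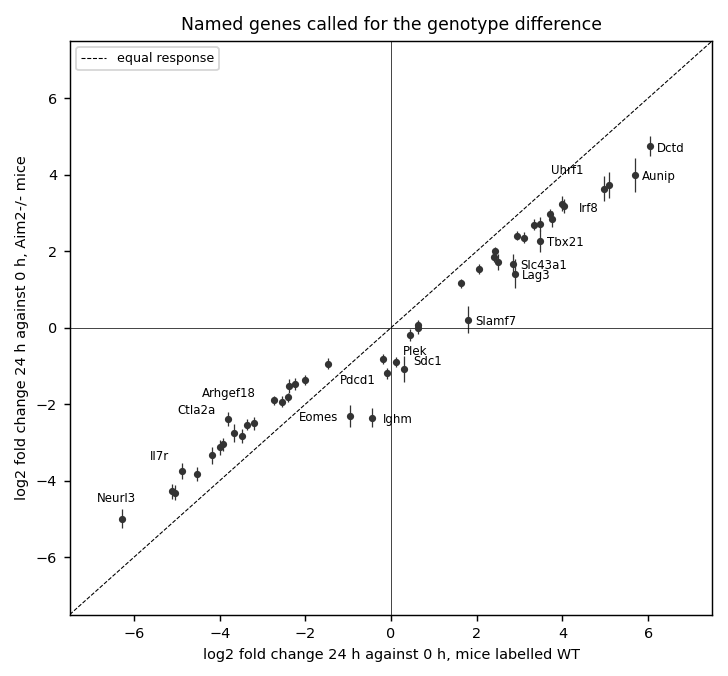
Log2 fold change of 24 h over 0 h in WT (horizontal) and Aim2-/- (vertical) cells for 50 named genes called for the difference. Bars are the standard error of the difference and the diagonal marks equal change. Most points above 0 lie under the diagonal and most points below 0 lie over it.

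By class of gene, immunoglobulin and T cell receptor segments had the lowest median, -1.84, with 194 of 331 lower and 4 higher, and the 2 kinds of segment differed in size. Of 166 immunoglobulin V segments tested 114 were lower and none higher (median -3.73), and of 11 immunoglobulin constant regions 10 were lower (median -2.98). Of 57 T cell receptor V segments of the alpha locus 11 were lower and none higher (median -0.51), a share under the background of lower genes, and of 21 of the beta locus 15 were lower and 2 higher (median -0.88). Long noncoding genes fell in 584 and rose in 269 of 1419 cases (median -0.63), and protein-coding genes rose in 5316 and fell in 4860 of 12654 (median 0.05). Pseudogenes rose in 303 and fell in 100 of 799, and their reads could stem from their parent genes. Among protein-coding genes, those that rose by over 1 had a median exon length of 3577 bases and those that fell by over 1 of 5119.5 bases, against 4430.5 bases for all tested.

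Variation among the mice was small for most genes. Of 8100 called genes of at least 10 CPM, 28 had changes that differed by over 2 on the log2 scale between mice. Rin2, a regulator of RAB5, changed by -3.72, -5.50 and -6.61 in the 3 mice. Ccl9, a chemokine of myeloid cells, changed by 3.58, 1.07 and 2.55, highest in the mouse labelled WT 1. The pancreatic enzyme genes varied at 0 h, with Ctrb1 at 8.65, 2.33 and 27.5 CPM and Pnlip at 4.85, 1.19 and 26.5 CPM, highest in mouse WT 4, and at 24 h with 0, 0.0514 and 0.205 and 0.101, 0 and 0.257 CPM. These genes are not known as T cell genes, and their part in the results was not tested.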

How the data were processed

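Poly(A) RNA of mouse splenic CD4+ T cells, enriched by magnetic negative selection, was sequenced as stranded single-end libraries. The authors aligned reads to GRCm38 with STAR and deposited raw counts per gene, not normalized. The submitters' processing notes also name DESeq2 and edgeR, and versions and the strand setting of counting are not given in the sources used here. Of 54446 gene identifiers, 54409 matched the annotation (GENCODE M21).

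Counts of all 24 libraries were analysed with edgeR 4.0.16 (R 4.3.3; quasi-likelihood F test, TMM scaling, filterByExpr with a minimum count of 10), with mouse as a block and a term for each genotype and time after 0 h, 12 residual degrees of freedom and Benjamini-Hochberg adjustment at 0.05. Libraries held 19715161 to 21627018 counts. The biological coefficient of variation was 9.78%. The script was also run on simulated data in which few genes changed. That run does not show how the scaling performs under a change as broad as the one measured here. The numbers in the labels pair the libraries, as deviations from the group means correlated at 0.139 to 0.297 between 0 h and 24 h of the same WT mouse and at -0.191 to 0.0644 between mice. With mouse as a block, p-values weigh the mean change against a residual spread that includes counting noise and was estimated over all 24 libraries. It is not the spread of the 24 h change among the WT mice alone. Differences in level between mice do not enter the p-values. Replicates were not duplicates, since counts differed beyond sampling noise in every pair.

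Alternatives were the fit without the block, the 6 libraries alone, other scalings (RLE, library totals), DESeq2 1.42.0, limma-voom (limma 3.58.1), other filters and leaving out each mouse. A fit on WT mice 3 and 4 alone was added after seeing the data. Named are the 12 largest rises and falls under the conditions given in the text, preset lead genes of each list and up to 4 of its called members with the largest rise and fall, the 5 largest changes against 6 h, the 5 lowest p-values of the genotype difference, the 5 largest ranges among mice, related pairs, cell type markers and Aim2. Rrm1, Rpa2, Gins3, Kif11, Gars and Tars were chosen after their values and sequences were seen, as were the pancreatic genes. The members and lists were chosen with earlier results of these data known. Promoter sequences are from RefSeq (GRCm38.p6), and 10598 tested genes had one. More elements, such as the E-box and the AP-1 site, and more lists were searched than are reported here. Some genes that the rule names are not reported here.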

Additional observations from a re-analysis of the deposited data

Results flagged for a closer look

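The difference between the 24 h responses of Aim2-/- and WT cells was called in 424 genes by edgeR's quasi-likelihood test of the difference itself, and 25 of the genes named in the text are among them. Values are the Aim2-/- change minus the WT change on the log2 scale. Among genes that fell in WT cells, the change was less negative in Aim2-/- cells for Ctla2a (1.42), Neurl3 (1.29), Il7r (1.13), Il18r1 (0.88), Txnip (0.87), S1pr1 (0.84), Klf2 (0.83), Rora (0.74), Mxd4 (0.70), Mylip (0.70) and Cdkn1b (0.65). Among genes that rose in WT cells, it was less positive for Lag3 (-1.47), Uhrf1 (-1.36), Irf8 (-1.34), Dctd (-1.30), Tbx21 (-1.20), Cd200 (-0.85), Phgdh (-0.76), Cad (-0.76), Bcl2l1 (-0.75) and Ctsz (-0.51). In Ighm (-1.90), which fell in WT cells, and in Pdcd1 (-1.10), Plek (-1.0) and Il2rb (-0.63), which were not called in WT cells, the difference was negative. In all genes with a negative difference, the mean level at 0 h was higher in Aim2-/- than in WT cells. At 24 h it was higher in Lag3, Ctsz, Ighm and Plek and lower in the others. Lag3 had means of 37.4 CPM in WT and 98.6 CPM in Aim2-/- cells at 0 h, and 209 and 252 CPM at 24 h. Levels were not tested between the genotypes.

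Of these genes, Ctla2a, Ighm, Pdcd1 and Plek were called whichever mouse was left out. The libraries labelled WT 1, whose Aim2 level was close to that of the Aim2-/- mice, entered all these values. The part of immunoglobulin, plasma cell and myeloid markers, which were higher in the Aim2-/- libraries at 0 h, was not tested.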

How the results depend on the processing

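The WT change from 0 h to 24 h was called in 10265 to 11833 genes under the other scalings, filters and tools, in 10725 with the 6 libraries alone, in 10861 to 10984 without 1 WT mouse and in 10870 with WT mice 3 and 4 alone, against 11694, and no gene called in both fits changed sign under these settings. Without pairing by mouse (no replicate block), 10946 genes were called for 24 h against 0 h, 8831 for 24 h against 6 h and 0 for the genotype difference (1825 at an unadjusted p under 0.05). The count of the genotype difference was 905 with DESeq2, 1267 with no filter on low counts and 6 to 1186 when 1 mouse was left out, against 424; the cause was not tested. Among the 171 named genes, Aim2 and Ighm lost the 24 h call without the block, Il24 lost it with DESeq2 (adjusted p = 0.297), and Ighm lost it without WT 1 (0.0903) or WT 3 (0.0738). The uncalled change of Pdcd1 was 0.012 without WT 1, -0.351 (called, adjusted p = 0.00496) without WT 3 and 0.018 with WT mice 3 and 4 alone. That of Plek was 0.214 without WT 1 and -0.027 without WT 3. At these depths, genes under 0.155 CPM could not be told from absent.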
